A study of Mus musculus with 8 samples.

Results

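Mpo, Elane, Prtn3 and Ctsg encode the classical proteins of the primary (azurophil) granule of the neutrophil, and each was read here by 1 probe set of an Affymetrix mouse array. The members were taken by identifier: 1415960_AT for Mpo, 1422928_AT for Elane, 1419669_AT for Prtn3 and 1419594_AT for Ctsg. These 4 were among 45037 probe sets without controls, and all 4 passed the brightness filter that left 22519 for testing. The gene names came with the selection of these identifiers, since the deposited table itself holds no gene names. Bone marrow progenitors of miR-223 null mice and of wild-type (WT) mice were grown in a medium made for isotope labelling of proteins (SILAC-IMDM) with 2 cytokines, SCF (stem cell factor, which binds the receptor Kit) and G-CSF (granulocyte colony-stimulating factor). Day 8 cells had 6 days with both factors and a further 42 hours without SCF, and the Gr-1 positive, c-Kit negative cells were sorted as mature neutrophils. Day 4 cells had 4 days with both factors and were sorted as c-Kit positive, Gr-1 negative progenitors. The 4 groups were null day 8, WT day 8, null day 4 and WT day 4, with 2 arrays each. The labels give no strain, age or sex, and leave it unsaid if replicates were separate animals or cultures, so the p-values measure only a spread between arrays that may be technical. The defining surface markers of progenitors and neutrophils, and the loss of miR-223 itself, were not checked here, since the probe sets of those genes were not known.

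Primary granules are made at the promyelocyte stage, and transcription of their genes is shut down as the cell matures while the stored proteins stay in the granules. Mpo encodes myeloperoxidase, the heme enzyme that turns hydrogen peroxide and chloride into hypochlorous acid. Elane (neutrophil elastase), Prtn3 (proteinase 3) and Ctsg (cathepsin G) encode related serine proteases that are stored in active form beside it. The factors best known for driving these genes are PU.1 (of the Ets family), C/EBP proteins, Myb and Runx1. miR-223 is a microRNA of the myeloid lineage that accumulates as granulocytes mature and represses messenger RNAs that pair with its seed.

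The deleted microRNA lies at chrX:96242817-96242926 on the plus strand (mouse build GRCm38.p6, RefSeq), and its main mature strand is shown with the seed, bases 2 to 8, in capitals.
mmu-miR-223-3p: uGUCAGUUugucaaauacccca

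The promoters are shown because the 4 genes lie at 3 separate places in the genome and all changed in the same direction. Elane (chr10:79886312-79888216) and Prtn3 (chr10:79879667-79883174) are neighbours on the plus strand, 3137 bases apart, with Cfd, the gene of complement factor D, 2636 bases beyond Elane. Mpo (chr11:87793784-87804412, plus strand) lies 2015 bases from Lpo, which encodes another heme peroxidase. Ctsg (chr14:56099885-56102574, minus strand) has the mast cell protease gene Mcpt8 and the granzyme gene Gzme as its nearest protein-coding neighbours. The 250 bases before each annotated start were read from RefSeq's promoter table, which held all 4 genes: chr11:87793534-87793783 for Mpo, chr10:79886062-79886311 for Elane, chr10:79879417-79879666 for Prtn3 and chr14:56102575-56102824 for Ctsg. Each is written on its gene's strand, and capitals mark matches, on either strand, to AGGAAGT (an Ets family core), AACNG (Myb) or GCAAT (a C/EBP core).
Mpo: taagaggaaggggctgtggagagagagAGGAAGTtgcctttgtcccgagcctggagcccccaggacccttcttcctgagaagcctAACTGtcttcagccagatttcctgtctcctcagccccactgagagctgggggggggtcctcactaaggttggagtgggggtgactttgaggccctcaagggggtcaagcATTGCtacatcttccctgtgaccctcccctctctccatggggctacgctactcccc
Elane: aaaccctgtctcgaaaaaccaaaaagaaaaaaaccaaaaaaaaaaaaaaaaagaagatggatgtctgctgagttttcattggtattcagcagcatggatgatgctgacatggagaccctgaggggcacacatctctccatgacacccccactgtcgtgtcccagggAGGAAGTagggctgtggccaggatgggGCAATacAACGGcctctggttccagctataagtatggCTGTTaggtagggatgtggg
Prtn3: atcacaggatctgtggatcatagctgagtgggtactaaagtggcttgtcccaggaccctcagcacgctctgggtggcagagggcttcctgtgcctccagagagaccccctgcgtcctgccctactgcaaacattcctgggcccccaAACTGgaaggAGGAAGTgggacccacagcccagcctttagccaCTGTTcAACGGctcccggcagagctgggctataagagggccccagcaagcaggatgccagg
Ctsg: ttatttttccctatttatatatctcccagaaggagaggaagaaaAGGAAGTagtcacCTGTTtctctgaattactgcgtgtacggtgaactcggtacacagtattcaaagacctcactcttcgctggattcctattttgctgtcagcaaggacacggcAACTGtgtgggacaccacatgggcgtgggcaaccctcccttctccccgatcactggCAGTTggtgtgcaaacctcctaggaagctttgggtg

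AGGAAGT was present on the gene's strand in all 4 windows. It lay 223 to 217 bases before the start of Mpo, 84 to 78 before Elane, 94 to 88 before Prtn3 and 206 to 200 before Ctsg. In the 32851 promoter windows of the same length, 7.7% held it on either strand. AACNG was also in all 4 windows, but 74.2% of all windows held it. GCAAT was found before Mpo (56 to 52 bases) and Elane (57 to 53 bases), and in 23.1% of all windows, while the windows of Prtn3 and Ctsg did not hold these letters. No match overlapped a match to another of these motifs. The letters were chosen after the 4 sequences had been read, so the counts support nothing about the factors, and a match is not a binding site.

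**Figure D1:**
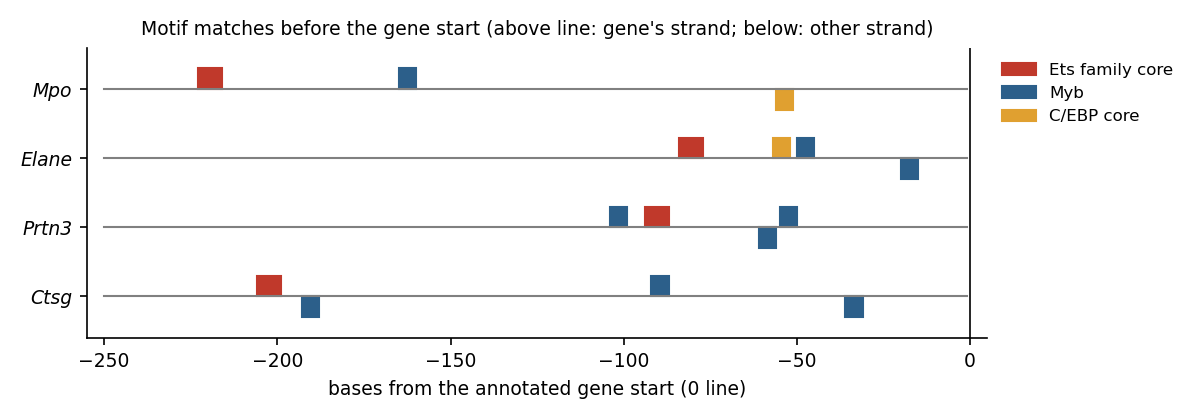
Matches to 3 motifs in the 250 bases before the start of Mpo, Elane, Prtn3 and Ctsg, by distance from the start in bases; boxes above a line are on the gene's strand and boxes below it on the other strand. The Ets family core stands 78 to 94 bases before Elane and Prtn3, and 200 to 223 bases before Mpo and Ctsg.

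Levels are log2 intensities as the authors deposited them, 1 value per array, and a difference of 1 is a doubling of signal. Mpo read 12.85 and 12.76 on the null day 8 arrays and 12.69 and 12.39 on the WT day 8 arrays, against 14.35 and 14.39 at null day 4 and 14.38 and 14.26 at WT day 4. Elane read 13.14 and 13.12 at null day 8 and 12.90 and 12.56 at WT day 8, against 14.13 and 14.08 at null day 4 and 14.18 and 14.01 at WT day 4. For both genes the null day 8 arrays lay above the WT day 8 arrays, all day 8 arrays lay below all day 4 arrays, and the genotypes overlapped at day 4. Prtn3 read 13.86 and 13.79 at null day 8 and 13.54 and 13.40 at WT day 8, against 14.34 and 14.34 at null day 4 and 14.34 and 14.31 at WT day 4. Ctsg read 12.70 and 12.57 at null day 8 and 12.26 and 11.87 at WT day 8, against 14.52 and 14.54 at null day 4 and 14.56 and 14.55 at WT day 4. Prtn3 and Ctsg were ordered in the same way at day 8, Prtn3 overlapped between genotypes at day 4, and for Ctsg the null day 4 arrays lay just below the WT day 4 arrays. Such a lack of overlap, with null lower, was found for 27.8% of the tested probe sets at day 4.

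**Figure D2:**
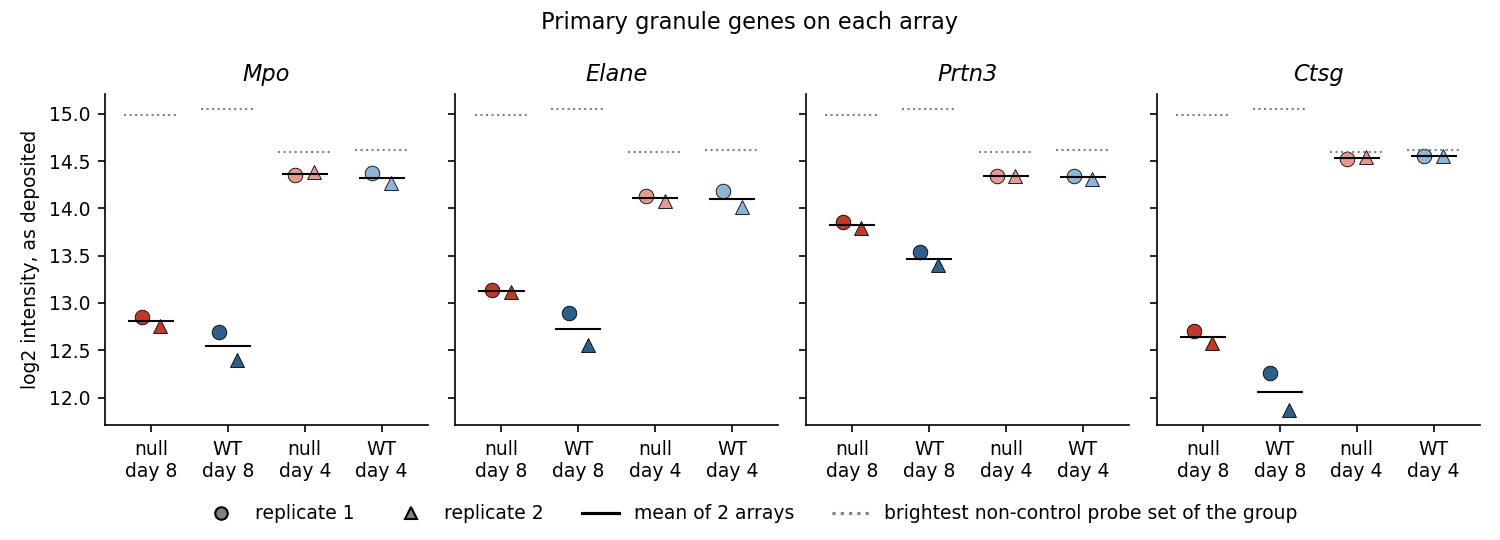
Log2 intensity of Mpo, Elane, Prtn3 and Ctsg on each of the 8 arrays, by genotype and day, with the mean of 2 arrays as a bar and the brightest non-control probe set of each group as a dotted line. The day 4 values lie close to the dotted line (14.01 to 14.56), and at day 8 each gene is higher on both null arrays than on both WT arrays.

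At day 4 the 4 genes were at the top of the measured range. Their ranks by brightness ran between 2 and 66 of the 45037 probe sets on the day 4 arrays and between 67 and 902 on the day 8 arrays. The brightest non-control probe set of a day 4 array read 14.55 to 14.61, and that of a day 8 array 14.86 to 15.06. Whether the day 4 signals were compressed by saturation was not tested. The replicate spread of the 4 genes was narrow at day 4, with an SD from 0.00032 (Prtn3, null) to 0.12 (Elane, WT; n = 2). It was widest at WT day 8, where the SD of 2 arrays was 0.21 for Mpo, 0.24 for Elane, 0.096 for Prtn3 and 0.28 for Ctsg. There replicate 2 was lower than replicate 1 for all 4 genes, by 0.30, 0.34, 0.14 and 0.40, so the 4 genes shared this difference between arrays and are not independent readings of it.

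All 4 genes fell from the progenitor to the mature neutrophil in both genotypes, and Ctsg fell furthest. In null cells Ctsg averaged 12.64 ± 0.09 at day 8 and 14.53 ± 0.01 at day 4 (log2, SD, n = 2 each), a log2 change of -1.89 (SE 0.10, limma adjusted p = 1.7e-08). Its day 8 signal was 26.9% of the day 4 signal (95% interval 23.1 to 31.4). Mpo in null cells kept 33.9% of its day 4 signal (log2 change -1.56, SE 0.08, adjusted p = 1.9e-08), Elane 50.8% (-0.98, SE 0.09, adjusted p = 2.3e-06) and Prtn3 69.9% (-0.52, SE 0.05, adjusted p = 4.3e-06). These 4 of 4 falls stand beside a background of 39.9% of tested probe sets called lower at day 8 in null cells. A fall with no overlap between the arrays of the days was seen for all 4 genes and for 45.3% of tested probe sets.

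In WT cells the falls were larger in value and came in the same order. Ctsg averaged 12.06 ± 0.28 at day 8 and 14.55 ± 0.002 at day 4 (SD, n = 2 each), a log2 change of -2.49 (SE 0.10, adjusted p = 2.7e-09) that left 17.8% of the day 4 signal (95% interval 15.2 to 20.8). Of the tested probe sets, 3.48% had a more negative change in WT than Ctsg, 8.77% than Mpo, 14.2% than Elane and 23.9% than Prtn3. Mpo kept 29.2% (log2 change -1.78, SE 0.08, adjusted p = 8.2e-09), Elane 38.7% (-1.37, SE 0.09, adjusted p = 1.4e-07) and Prtn3 55.2% (-0.86, SE 0.05, adjusted p = 6.6e-08). In WT 41.7% of tested probe sets were called lower at day 8, and 46.2% were lower without overlap, as all 4 genes were. The median change over the 4 genes was -1.27 in null and -1.57 in WT, against 0.003 and -0.04 over all tested probe sets.

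The 4 genes thus did not fall by like amounts on this scale. The 95% intervals of the WT change ran from -2.71 to -2.27 for Ctsg, -1.96 to -1.59 for Mpo, -1.58 to -1.16 for Elane and -0.98 to -0.74 for Prtn3, none overlapping the next. In null cells the interval of Ctsg (-2.12 to -1.67) overlapped that of Mpo (-1.75 to -1.38), while those of Elane (-1.19 to -0.77) and Prtn3 (-0.64 to -0.40) were apart from each other and from Mpo. Differences between genes were not tested themselves, and they are changes of signal, not of transcript number. All 4 day 4 levels lay near the top of the measured range (14.01 to 14.56). The part of signal compression there in the sizes and order of the falls was not tested. The 3' minus 5' signal of the beta-actin control probe sets, which bears on RNA integrity and labelling, moved with the days: at day 8 it lay between 0.10 and 0.17, against 0.36 to 0.44 at day 4 (log2). For Gapdh it was -0.08 to -0.03 at day 8 and -0.02 to 0.05 at day 4, and the part of either in the falls was not tested. In sorted bulk cells, fewer expressing cells and less RNA per cell cannot be told apart. Days in culture, the removal of SCF and the sorted cell type changed together, so their parts in the falls cannot be told apart either. Scaling to the hybridization controls moved the median change of all tested probe sets to -0.35 in null and -0.21 in WT, and all 4 genes stayed called lower in both genotypes. The fall of Prtn3 in null cells moved with the scaling, to a log2 change of -0.87 under these controls and -0.33 after cyclic loess.

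**Figure D3:**
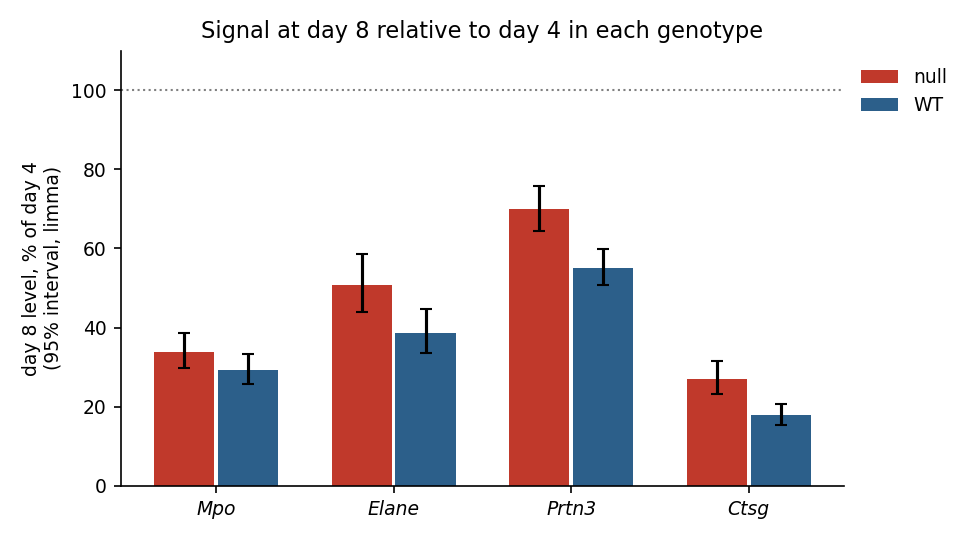
Signal at day 8 as a percent of that at day 4 for Mpo, Elane, Prtn3 and Ctsg, in null (left bar) and WT (right bar) cells, with the 95% interval of the limma fit and the dotted line at 100%. The percent is higher in null for each gene, such as 26.9% against 17.8% for Ctsg; the difference between genotypes did not pass the interaction test for any of the 4.

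Mature neutrophils without miR-223 carried more Ctsg, Elane and Prtn3 messenger RNA signal than WT neutrophils. Ctsg averaged 12.64 ± 0.09 in null and 12.06 ± 0.28 in WT (SD, n = 2 each), 1.49-fold higher in null (log2 change 0.57, SE 0.10, adjusted p = 0.0091). Elane averaged 13.13 ± 0.01 in null and 12.73 ± 0.24 in WT, 1.32-fold higher (0.40, SE 0.09, adjusted p = 0.035). Prtn3 averaged 13.82 ± 0.04 in null and 13.47 ± 0.10 in WT, 1.28-fold higher (0.35, SE 0.05, adjusted p = 0.0041). Mpo averaged 12.81 ± 0.06 in null and 12.54 ± 0.21 in WT and was not called (1.20-fold, 95% interval 1.05 to 1.37; log2 change 0.26, SE 0.08, adjusted p = 0.11).

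Thus 3 of the 4 genes were called higher in null at day 8, where 4.09% of all tested probe sets were. For all 4 genes both null arrays were above both WT arrays, as for 30.4% of tested probe sets. The median change over the 4 genes was 0.38, against 0.02 over all tested probe sets. Among those, 1.88% had a larger change than Ctsg, 4.87% than Elane, 6.42% than Prtn3 and 11.3% than Mpo. An exact permutation test on 1 gene, with only 2 arrays a group, can reach no p below 0.333, so every call draws on variance that limma pools over groups and probe sets.

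These calls depended on the model and on single arrays. Without the intensity trend in the variance none of the 4 was called by limma (adjusted p = 0.054 for Ctsg, 0.063 for Prtn3, 0.13 for Elane). With arrays scaled to the hybridization controls, the calls of Prtn3 (log2 change 0.26, adjusted p = 0.22) and Elane (0.31, adjusted p = 0.21) were lost. Calls moved over the whole table too: 921 of the 22519 tested probe sets were called higher in null as deposited. Such calls numbered 590 without the trend and 326 under the hybridization controls, against 943 with a replicate block and 1043 with only the 4 arrays compared. Without WT day 8 replicate 2, the array on which all 4 genes were lowest, the log2 changes were 0.38 for Ctsg (adjusted p = 0.027) and 0.29 for Prtn3 (adjusted p = 0.041), both still called, and 0.23 for Elane (adjusted p = 0.19) and 0.11 for Mpo (adjusted p = 0.50). Without WT day 8 replicate 1 they were 0.77, 0.42, 0.57 and 0.41 for the same genes in that order, and Mpo was then called as well (adjusted p = 0.018). Without null day 8 replicate 1 the calls of Ctsg (0.51, adjusted p = 0.085) and Elane (0.39, adjusted p = 0.17) were lost. The call of Elane was lost in 9 of 16 alternatives, also without null day 8 replicate 2 (0.41, adjusted p = 0.12), without null day 4 replicate 1 (adjusted p = 0.054) or replicate 2 (adjusted p = 0.053), and after quantile normalization or cyclic loess. Those of Ctsg and Prtn3 were lost in 2 each, and no alternative turned the sign of any of the 4.

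**Figure D4:**
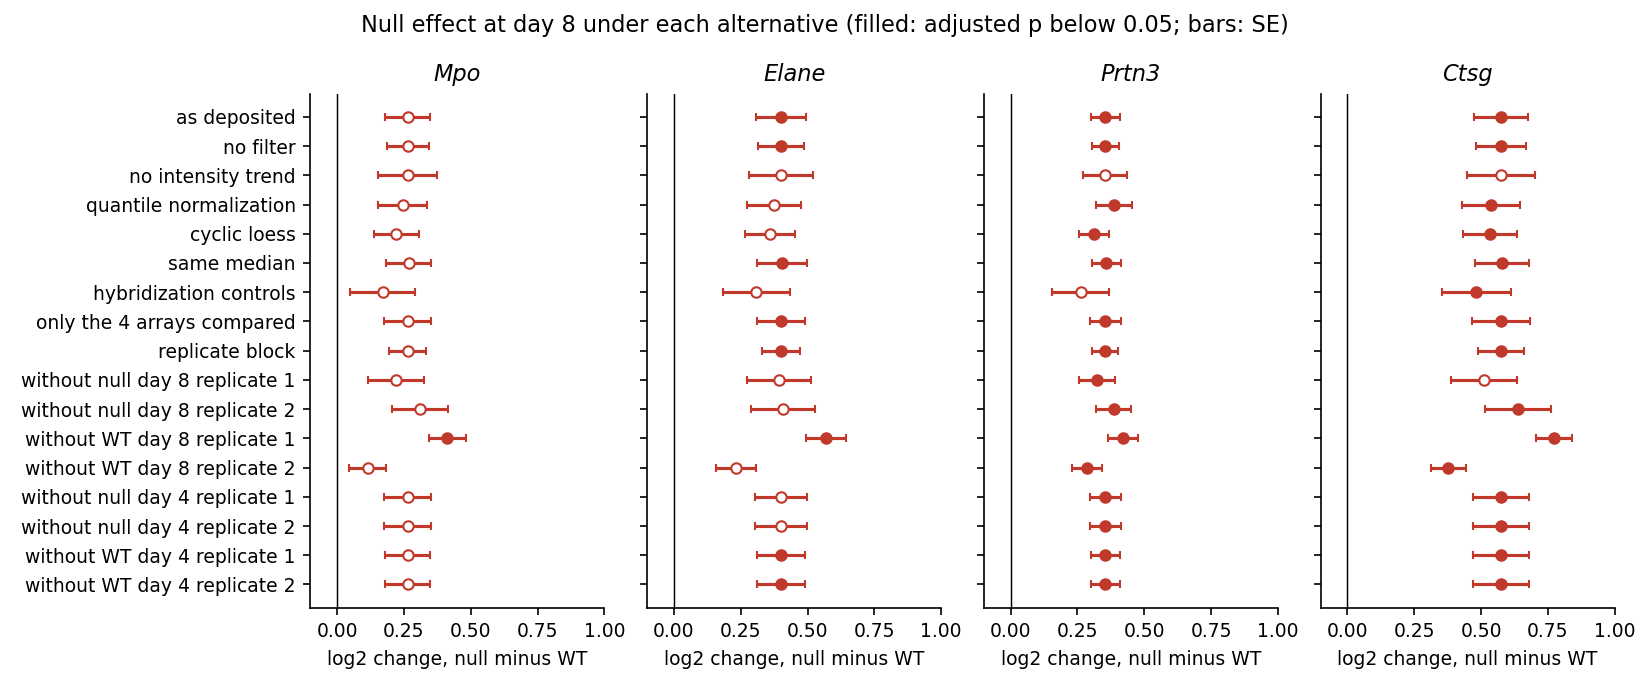
Log2 change (null minus WT at day 8) of Mpo, Elane, Prtn3 and Ctsg as deposited and under 16 alternatives, with the SE as a bar; filled points had an adjusted p below 0.05. All points lie above 0, from 0.11 for Mpo without WT day 8 replicate 2 to 0.77 for Ctsg without WT day 8 replicate 1.

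Values that could move with the day 8 difference were read on the same arrays. The receptor for transferrin, an iron uptake protein of proliferating cells, read 6.12 and 6.44 on the null arrays and 6.49 and 6.13 on the WT arrays at its 3' control probe set, so the genotypes overlapped. Each array was also placed on the axis of the WT maturation change over all tested probe sets other than the 4 genes, with the WT day 4 mean at 0 and the WT day 8 mean at 1. The null day 8 arrays stood at 0.977 and 0.975 and the WT day 8 arrays at 0.974 (replicate 1) and 1.026 (replicate 2). The null day 4 arrays stood at -0.036 and -0.046, so null arrays also lay below the WT mean at day 4. The WT day 8 arrays define the axis and must lie at equal distances on either side of 1, so their positions are not independent readings of maturity. The 3' minus 5' value of beta-actin was 0.10 and 0.10 on the null arrays and 0.10 and 0.17 on the WT arrays, the higher being replicate 2. That of Gapdh was -0.056 and -0.081 on the null arrays and -0.030 and -0.049 on the WT arrays, lower on both null arrays. The part of these differences in the result was not tested.

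In progenitors the genotypes did not differ detectably in any of the 4 genes. The log2 changes of null over WT at day 4 were 0.05 for Mpo (95% interval -0.14 to 0.24), 0.01 for Elane (-0.20 to 0.22), 0.01 for Prtn3 (-0.11 to 0.13) and -0.02 for Ctsg (-0.25 to 0.20). The limma adjusted p was 0.82 or more for each, so 0 of the 4 were called, beside 2.72% of tested probe sets called in either direction. None of the 4 had an unadjusted p below 0.05 either. The intervals leave room for null signal up to 1.18-fold that of WT for Mpo, 1.16-fold for Elane, 1.15-fold for Ctsg and 1.10-fold for Prtn3. Their low ends were 0.91-fold for Mpo, 0.87-fold for Elane, 0.84-fold for Ctsg and 0.93-fold for Prtn3. They take the deposited scale at face value, although these are the values near the top of the measured range.

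Whether the null effect differed between the days was tested as an interaction. The effect was larger at day 8 by 0.60 for Ctsg (log2, SE 0.14, adjusted p = 0.069), 0.39 for Elane (SE 0.13, adjusted p = 0.17), 0.34 for Prtn3 (SE 0.08, adjusted p = 0.055) and 0.22 for Mpo (SE 0.12, adjusted p = 0.41). None of the 4 passed the threshold, where 1.55% of tested probe sets were called with a larger effect at day 8. An unadjusted limma p below 0.05 was found for 3 of the 4. The share of all tested probe sets below that unadjusted threshold was not counted, so the 3 of 4 has no background beside it. The excess in null neutrophils is therefore not shown to be particular to day 8. Ctsg was called without WT day 8 replicate 1 (0.80, adjusted p = 0.026). Without that array the difference was 0.36 for Mpo, and without WT day 8 replicate 2 it was 0.07 for Mpo, 0.22 for Elane and 0.40 for Ctsg. Scaled to the hybridization controls, the differences were 0.41 for Ctsg, 0.21 for Elane, 0.16 for Prtn3 and 0.03 for Mpo.

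**Figure D5:**
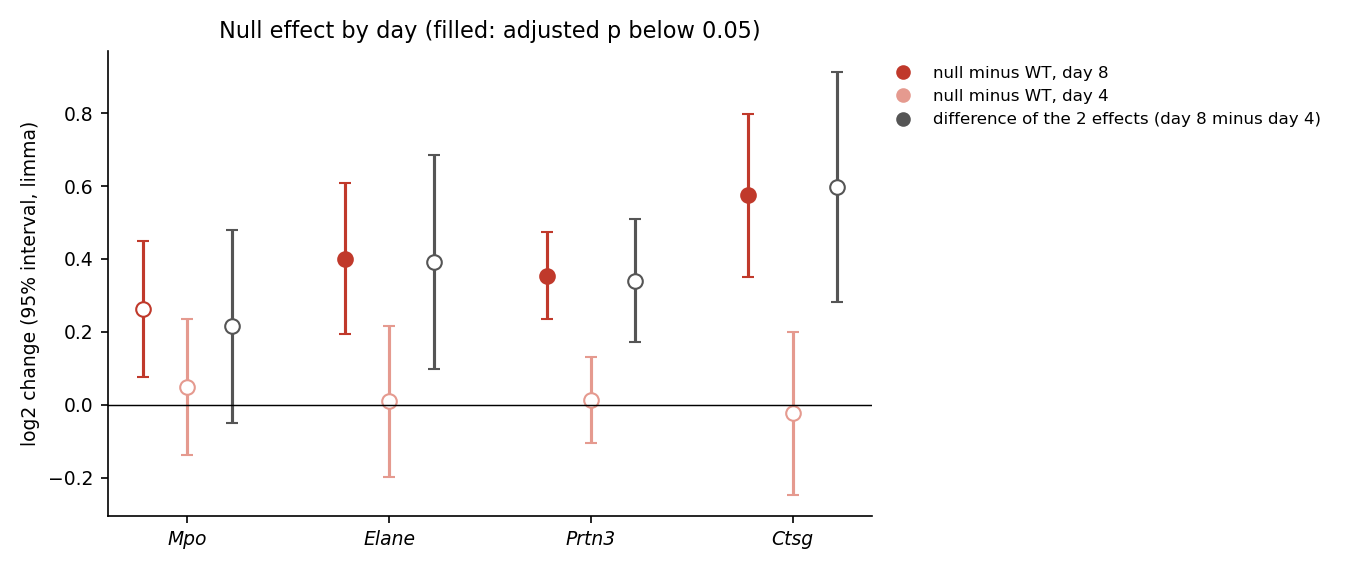
Log2 change of null over WT at day 8 and at day 4, and the difference of these effects, for Mpo, Elane, Prtn3 and Ctsg, with the 95% interval of the limma fit; filled points had an adjusted p below 0.05. At day 8 Elane, Prtn3 and Ctsg are filled, at day 4 all points lie between -0.02 and 0.05, and no difference between the days is filled.

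Patterns over the 8 arrays were compared by the root mean square difference of log2 values, each probe set centred on its own mean. The probe set nearest to Prtn3 was 1415849_S_AT (difference 0.024), with log2 changes of -0.57 in null and -0.86 in WT. That nearest to Mpo was 1451271_A_AT (0.044), with changes of -1.59 in null and -1.89 in WT. No gene name for these identifiers was at hand. This difference counts the size of a change as well as its shape, so genes that fell by unlike amounts rank apart even with patterns of like shape. By this measure the 4 genes were not each other's nearest neighbours. From Mpo, Elane was number 1844 and Ctsg number 2277 of 22518 others, and from Ctsg, Mpo was number 833. The closest pair among them was Elane and Prtn3, with a difference of 0.25, and the furthest was Prtn3 and Ctsg, with 0.76.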

How the data were processed

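The deposited table holds 1 value per array for 45101 probe sets, 64 of them controls, on a log2 scale, read from the values. The scanner software GCOS is named without a version, per the submitters' processing notes; how probes were summarized, background-corrected and normalized is not given in the sources used here. Array medians ran from 5.44 to 5.49, so the values were used as deposited. Another scaling between arrays made some changes of the 4 genes larger and others smaller.

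Probe sets with a mean at or above the median (5.51) were fitted with limma 3.58.1 in R 4.3.3 (lmFit, eBayes with an intensity trend, 1 model of 4 group means, 4 residual degrees of freedom), and the steps were tested on simulated data. Adjusted p is Benjamini-Hochberg over the 22519 tested probe sets, two-sided, with calls below 0.05. The 5 comparisons were null against WT at day 8 and at day 4, day 8 against day 4 in null and in WT cells, and the interaction. The median SE of a log2 change was 0.115 over all tested probe sets; the number of arrays limits precision.

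The members, comparisons and motif letters were chosen with earlier results of these data known. The rule for names took the 4 members and, by the smallest root mean square difference of profiles, at most 1 unnamed probe set for each; the closest of these are printed. Lists of other granule, heme, regulator and cell type marker genes were not used, since no table paired probe sets with genes. Promoter and microRNA sequences are from RefSeq (GRCm38.p6).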

Additional observations from a re-analysis of the deposited data

How the results depend on the processing

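All 4 members stayed called lower at day 8 in both genotypes under all 16 alternatives, and none was called at day 4. For null against WT at day 8, the log2 changes not called without the intensity trend were 0.40 (Elane), 0.35 (Prtn3) and 0.57 (Ctsg). That left 0 of 4 called by limma, where 590 of all tested probe sets were called higher in null, against 921 as deposited. Quantile normalization (0.38) and cyclic loess (0.36) lost Elane. Scaling to the hybridization controls lost Elane (0.31) and Prtn3 (0.26), leaving 1 called, where 326 of all tested probe sets were called higher. Leaving out 1 array at a time gave 0.11 to 0.41 for Mpo, 0.23 to 0.57 for Elane and 0.38 to 0.77 for Ctsg. At day 4 the values ran from -0.0069 to 0.10 (Mpo), -0.076 to 0.10 (Elane) and -0.0022 to 0.029 (Prtn3) without 1 array, and Ctsg was 0.069 under the hybridization controls. Without 1 array the interaction ran from 0.40 to 0.80 for Ctsg, 0.066 to 0.36 for Mpo, 0.22 to 0.56 for Elane and 0.27 to 0.41 for Prtn3. The cause of these shifts was not tested.

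Replicate numbers are shared between groups in the labels. Across probe sets the replicate differences of the groups correlated at -0.045 (null day 8 with WT day 8) to 0.216 (null day 8 with null day 4). Whether arrays with the same number came from the same animal, culture or batch was not tested. With the replicate block, Prtn3 passed in the interaction (0.34, adjusted p = 0.047), 1 member in all, and no other call on the 4 members changed.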
